A study of Mus musculus with 8 samples.

Results

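The transcripts described here encode the lectin-like receptors of natural killer (NK) cells and the proteins with which NK cells and cytotoxic T cells kill their targets. They were chosen by gene symbol as the Klra to Klrk genes, the granzymes Gzma to Gzmn, and Prf1, Ncr1, Nkg7, Eomes and Tbx21. That gave 41 of the 22756 genes counted, of which 26 were Klr genes, 10 were granzymes and 5 were the others. The 8 RNA-Seq libraries came from the distal lung of adult mice whose strain label named more than 90 percent C57BL/6. The α7G mice carry an IRES-tauGFP reporter in the Chrna7 gene and are the control line, and the α7E260A:G mice carry in addition a point mutation of the α7 nicotinic receptor at the same locus, so that both lines share the reporter. Mice of each line breathed room air (control) or side-stream cigarette smoke (CS) on 5 days per week for 4 months, and each of the 4 groups was 1 library from males and 1 from females. The number of mice behind a library is not given in the sources used here, and p-values therefore measure only the spread between libraries that also differ in sex.

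The lungs had been lavaged and CD45-positive cells depleted before RNA was made. Which cells of the epithelium-enriched preparation carried these transcripts was not tested. Transcripts of Ptprc, which encodes CD45, were present at 771 to 1935 RPM (reads per 1000000 counted reads). The NK markers Ncr1, Klrb1c, Klra8 and Eomes were counted in all 8 libraries, and the markers of alveolar type II (ATII) cells summed to 19403 to 29462 RPM in α7G and 4518 to 14280.3 RPM in α7E260A:G. The Chrna7 coding sequence had 4 counts in the male α7E260A:G control and 0 in the other 7 libraries, too few to check a genotype label. Total counts per library lay between 8020726 and 10944100, and 3 counts, taken as the floor, correspond to 0.274 to 0.374 RPM. The libraries also differed in how a gene's deviation depended on the length of its coding sequence (CDS), with slopes from -0.29 to 0.39 (log2 per doubling of length), positive in both α7G control and both male α7E260A:G libraries and negative in the other 4. Values from a fit with a CDS length offset are given where they change a result. In such bulk samples fewer NK cells and less RNA per cell cannot be told apart.

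NK cells read the surface of other cells through paired inhibitory and activating receptors, and a target that has lost class I histocompatibility molecules or gained stress ligands is killed. In mice most of these receptors are C-type lectin-like proteins encoded side by side in the NK gene complex: the Ly49 family (Klra), which binds class I molecules, CD94 (Klrd1) with its NKG2 partners (Klrc), NKG2D (Klrk1) and the NKR-P1 family (Klrb1). Killing is carried out by granules that hold perforin (Prf1), which opens the target membrane, and granzymes, serine proteases that enter through it. Eomes and Tbx21 (T-bet) are T-box transcription factors needed for NK cell development. Of the 26 Klr genes, 25 lay within 8.98 Mb of chromosome 6, from 122220614 to 131197380 of NCBIM37 (mm9), and the remaining gene, Klrg2, lay elsewhere on the same chromosome. The lower end of this span is Klrg1, which ends at 122232900 and so lies apart. The other Klr genes averaging at least 50 counts start at 128559245 (Klrb1a) or beyond. The granzymes lay on chromosomes 14 (7 genes, Gzmb to Gzmn), 13 (Gzma and Gzmk) and 10 (Gzmm).

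Several of these genes are close copies, and a read from a stretch that they share cannot be placed with certainty. How such reads were handled is not given in the sources used here. The coding sequences of Klrc2 and Klrc3 were identical at 96.4% of aligned bases and shared an unbroken run of 261 bases. Klra10 was identical to Klra9 at 96.9%, Klra3 to Klra10 at 96.3%, Klra3 to Klra9 at 95.9% and Klra8 to Klra9 at 91.9% of aligned bases. The share of a gene's 50-base CDS windows that occur once in the genome was 42.3% for Klrc2, 59.7% for Klra9 and Klra10, 62.4% for Klrc3, 65.5% for Klrc1, 69.6% for Klra8 and 81.9% for Klra3. It was at least 90% for 28 of the 41 genes and 100% for Ncr1, Klra2, Klra17, Klrd1, Klrk1, Prf1, Nkg7, Gzma, Gzmb, Gzmk, Eomes and Tbx21. The gene model of Klra9 in GENCODE M1 runs from 130128771 to 130285823 on chromosome 6, and 652 of the 50-base windows of the Klra3 CDS also lie in Klra9 transcripts. Only 6.65% of the Klra3 windows lie in no transcript of another gene, the lowest share among the 41 genes. Even so, no coding base of any of the 41 genes was shared with the CDS of another gene. The read length is not given in the sources used here. The counts carry no sequence, so alleles were not examined. To show where these copies can be told apart, 60 bases of the CDS of each are printed. For each set this is the window within an exon that has the most differing positions. The bases are given in the direction of the gene from NCBIM37, where all 6 genes lie on the minus strand. Positions that differ within the set are in capitals. The Klrc windows lie at chr6:129608776-129608835 (Klrc2) and chr6:129591506-129591565 (Klrc3) and differ at 9 positions, and the Klra windows lie at chr6:130078067-130078126 (Klra8), chr6:130141208-130141267 (Klra9), chr6:130285706-130285765 (Klra3) and chr6:130231829-130231888 (Klra10) and differ at 22.
Klrc2: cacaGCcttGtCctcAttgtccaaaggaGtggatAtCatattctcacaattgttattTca
Klrc3: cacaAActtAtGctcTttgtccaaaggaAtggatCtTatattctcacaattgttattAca
Klra8: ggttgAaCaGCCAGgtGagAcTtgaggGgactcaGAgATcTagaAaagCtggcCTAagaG
Klra9: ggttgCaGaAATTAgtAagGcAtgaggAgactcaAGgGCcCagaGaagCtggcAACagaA
Klra3: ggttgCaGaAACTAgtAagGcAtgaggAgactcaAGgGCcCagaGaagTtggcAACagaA
Klra10: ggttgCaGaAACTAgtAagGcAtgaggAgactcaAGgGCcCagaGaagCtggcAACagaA

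What many of these genes share beyond their names is a short motif before their start. The letters bound by Runx factors (TGTGGT, or ACCACA on the other strand) stood between 250 bases before and 50 bases after the start in 21 of 45 promoters of these genes, against 16.8% of all 32851 promoters in the RefSeq table (GRCm38.p6, in which 38 of the 41 genes were found). The 19 genes with the letters were Gzma to Gzmg, Gzmm, Klra1, Klrb1a, Klrb1c, Klrc1 to Klrc3, Klre1, Klrk1, Ncr1, Nkg7 and Prf1. T-box letters (GGTGTGA or TCACACC) stood in 4 of the 45 promoters (Gzmk, Gzmm, Klra1 and Nkg7) against 3.98% of all, and Ets letters (CAGGAAGT or ACTTCCTG) in 7 (Gzmc to Gzmg, Prf1 and Tbx21) against 3.33%. The neighbouring granzyme genes on chromosome 14 are copies of each other, and Klrc2 and Klrc3 are near copies. Ncr1 is listed with overlapping promoters that hold the same matches. The promoters of these genes therefore do not count independently, and a match of letters is a description and not a bound site. The promoters of Prf1 and Gzma, which encode the pore and the most abundant protease, are printed with these letters in capitals. So are those of Ncr1 and Klrc3, which stood higher in α7E260A:G by their fold changes without passing the main test. They lie in GRCm38.p6 at chr10:61297586-61297885 (plus strand), chr13:113100932-113101231 (minus strand), chr7:4337465-4337764 (plus strand) and chr6:129643239-129643538 (minus strand).
Prf1: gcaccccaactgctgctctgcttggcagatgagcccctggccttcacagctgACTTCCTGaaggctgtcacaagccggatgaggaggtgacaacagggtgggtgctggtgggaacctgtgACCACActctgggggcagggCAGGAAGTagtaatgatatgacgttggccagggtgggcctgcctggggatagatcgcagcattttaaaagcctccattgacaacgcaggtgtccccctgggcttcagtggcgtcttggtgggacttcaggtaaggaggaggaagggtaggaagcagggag
Gzma: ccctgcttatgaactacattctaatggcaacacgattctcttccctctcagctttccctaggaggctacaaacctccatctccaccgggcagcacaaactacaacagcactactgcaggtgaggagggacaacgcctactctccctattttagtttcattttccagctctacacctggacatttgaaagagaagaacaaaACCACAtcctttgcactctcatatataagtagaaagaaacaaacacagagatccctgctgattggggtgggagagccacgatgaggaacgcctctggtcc
Ncr1: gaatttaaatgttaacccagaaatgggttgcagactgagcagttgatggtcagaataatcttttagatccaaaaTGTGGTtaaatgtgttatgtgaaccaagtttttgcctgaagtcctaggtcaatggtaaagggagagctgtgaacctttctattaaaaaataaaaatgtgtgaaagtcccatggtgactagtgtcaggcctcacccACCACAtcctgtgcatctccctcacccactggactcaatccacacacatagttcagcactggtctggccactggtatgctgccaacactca
Klrc3: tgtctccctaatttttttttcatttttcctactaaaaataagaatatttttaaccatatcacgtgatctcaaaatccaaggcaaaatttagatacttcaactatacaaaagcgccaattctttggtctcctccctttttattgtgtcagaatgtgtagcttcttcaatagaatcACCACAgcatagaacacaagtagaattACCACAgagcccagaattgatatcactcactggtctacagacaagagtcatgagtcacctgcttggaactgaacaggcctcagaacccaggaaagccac

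NK and cytotoxic transcripts were present in every library. Together the 41 genes amounted to 1440.0 and 2253 RPM in α7G control, 1668 and 1775 in α7G CS, 1259 and 2490.5 in α7E260A:G control, and 1021 and 1441 in α7E260A:G CS, in each pair the male library first and the female second, as in all values that follow. This was 0.102% to 0.249% of all counts, with 95% Wilson intervals at most 0.0061 percentage points wide that cover counting error only. The female library was higher than the male library in each of the 4 groups, and the groups overlapped. Between the highest and the lowest library the sum differed 2.44-fold, and 2.06-fold after the dependence on CDS length was removed. Gzma alone, a tryptase-like granzyme, made up 27.2% to 43.3% of the sum.

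**Figure D1:**
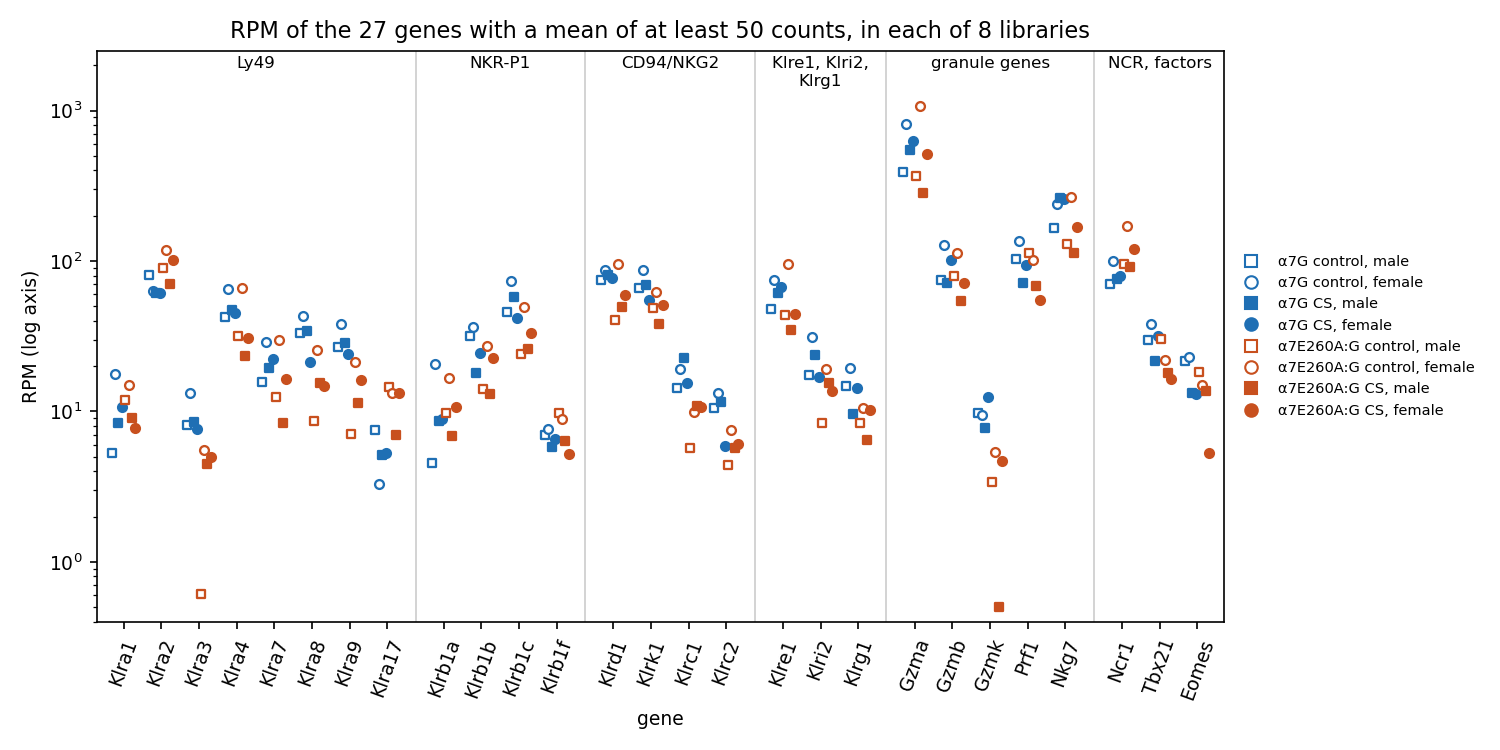
RPM (log axis) of the 27 genes with a mean of at least 50 counts, 1 point per library, grouped by family. Squares are male and circles female libraries, open symbols control and filled symbols CS, blue α7G and orange α7E260A:G. Values are not corrected for length, and Gzma lies between 281 and 1079 RPM.

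Compared per length, Gzma stood at 688 RPKM (RPM per kb of CDS, mean of 8 libraries) and Nkg7, a granule membrane protein needed for killing, at 405. Next came Gzmb at 117, Klrd1 at 116 and Ncr1 (NKp46, an activating receptor found on nearly all NK cells) at 103 RPKM. The most abundant Ly49 transcripts per length were the inhibitory Klra2 (Ly49B) at 83.8 and the activating Klra4 (Ly49D) at 55.1, and Klre1 and Klrk1 stood at 86.6 and 83.5 RPKM. Prf1 was at 55.9 and Klrb1c, which encodes NK1.1, at 51.1, whereas the factors Tbx21 and Eomes were at 16.3 and 7.24 RPKM. Of the 41 genes, 34 had a mean of at least 10 counts and were tested, 27 a mean of at least 50 and 14 a mean of at least 200. Among the 7 that were not tested, Gzmc had 1 to 11 counts per library, Klrb1 0 to 19 and Gzmf 4 counts in 1 library, while Gzmd, Gzme, Gzmg and Gzmn had 0 in all 8 libraries, which allows up to 3 counts in each.

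The first comparison asked whether the α7E260A:G lung differed from the α7G lung in these transcripts, over both exposures with 4 libraries on each side. Klrc3 was higher and several Ly49 and NKG2 receptors were lower in α7E260A:G, while Klra2, Klra17 and Ncr1 were higher. None of the 34 tested genes passed the quasi-likelihood test of edgeR, whose p-values were adjusted after Benjamini and Hochberg over 13637 genes, of which 0.0953% passed. Of the 34, 6 had an unadjusted p under 0.05, against 11.4% of all genes, 3 of them higher and 3 lower, against 5.96% and 5.49% of all genes, and DESeq2 called 2 (Klrc3 and Klra17), against 3.78% of all genes. With a CDS length offset 1 passed (Klrc3), against 3.56% of all genes, a share near that of these genes. Without the female α7E260A:G control library 5 passed, namely Klra3, Klra8, Klra9, Klrc1 and Klrc3, against 4.74% of all genes in the same fit, and without the male library of that group Klrc3 alone passed, against 3.07%. In all, 24 of the 34 were lower in α7E260A:G with a median log2 fold change of -0.30, against 46.6% of all tested genes lower and a median of 0.03. Counts over pairs of the same sex and exposure, given below for single genes, are descriptions only. The share of all tested genes with the same direction in every such pair was not counted.

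Klrc3 encodes NKG2E, a partner of CD94. It was counted at 2.29 and 1.92 RPM in α7G control, 0.815 and 0.902 in α7G CS, 12.1 and 9.05 in α7E260A:G control, and 4.49 and 2.54 in α7E260A:G CS. All 4 α7E260A:G libraries were above all 4 α7G libraries, which 2.34% of all tested genes also showed in that direction. The difference amounted to a log2 fold change of 2.23 (SE 0.31, adjusted p = 0.0636), and with the CDS length offset to 2.32 (SE 0.38, adjusted p = 0.015). When the dependence on CDS length was removed from the RPM values, the female α7E260A:G CS library (2.23) lay below the male α7G control (2.66) and the groups overlapped.

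Its near copy Klrc2, the activating receptor NKG2C, stood lower in the mutant line, at 10.6 and 13.3 RPM in α7G control, 11.5 and 5.87 in α7G CS, 4.39 and 7.49 in α7E260A:G control, and 5.74 and 6.08 in α7E260A:G CS. The lines overlapped only through the female α7G CS library, and the difference was a log2 fold change of -0.67 (SE 0.35, adjusted p = 0.559). Counted together, Klrc2 and Klrc3 reached 12.9 and 15.3 RPM in α7G control, 12.3 and 6.77 in α7G CS, 16.4 and 16.5 in α7E260A:G control, and 10.2 and 8.63 in α7E260A:G CS. This sum overlapped between the lines, with a log2 fold change of 0.19 (SE 0.25, adjusted p = 0.876), against 2.23 for Klrc3 alone. Klrc1, the inhibitory NKG2A, had 14.3 and 19.2 RPM in α7G control, 22.8 and 15.5 in α7G CS, 5.73 and 9.96 in α7E260A:G control, and 10.8 and 10.6 in α7E260A:G CS. All α7E260A:G values lay below all α7G values, with a log2 fold change of -0.85 (SE 0.31, adjusted p = 0.323). Klrd1 encodes CD94, the shared partner of the NKG2 proteins, and was counted at 74.6 and 87.1 RPM and 81 and 76.6 RPM in the control and CS libraries of α7G, and 40.5 and 94.9 RPM and 49.4 and 59.8 RPM in those of α7E260A:G. The female α7E260A:G control was the highest library for Klrd1 and the other 3 of that line the lowest, so the lines overlapped, with a log2 fold change of -0.26 (SE 0.33, adjusted p = 0.865). Klrk1, which encodes NKG2D, the receptor for stress ligands, was lower in α7E260A:G in each of the 4 pairs of the same sex and exposure, at 65.9 and 87 RPM and 69.2 and 55.1 RPM in the control and CS libraries of α7G, and 48.7 and 61.9 RPM and 38.4 and 50.7 RPM in those of α7E260A:G with a log2 fold change of -0.37 (SE 0.24, adjusted p = 0.655).

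Of the 4 Ly49 genes with the closest copies, Klra3, Klra8 and Klra9 were lower in α7E260A:G and Klra10 was not, with a log2 fold change of 0.30 (SE 0.59). Klra8, the activating receptor Ly49H that recognises a mouse cytomegalovirus protein, was counted at 33.1 and 43 RPM in α7G control, 34 and 21.3 in α7G CS, 8.65 and 25.6 in α7E260A:G control, and 15.5 and 14.7 in α7E260A:G CS. The female α7E260A:G control overlapped with the female α7G CS library, and the difference was a log2 fold change of -0.88 (SE 0.40, adjusted p = 0.468). Klra9 (Ly49I) was at 26.8 and 38.1 RPM in α7G control, 28.5 and 24.1 in α7G CS, 7.07 and 21.3 in α7E260A:G control, and 11.3 and 16.3 in α7E260A:G CS, with no overlap in RPM, an overlap once RPM was scaled by TMM (trimmed mean of M values) factors, and a log2 fold change of -0.92 (SE 0.41, adjusted p = 0.463). For Klra3 (Ly49C) the values were 8.18 and 13.3 RPM in α7G control, 8.50 and 7.67 in α7G CS, 0.609 and 5.57 in α7E260A:G control, and 4.49 and 4.98 in α7E260A:G CS. The male α7E260A:G control held only 5 Klra3 counts, and the lines did not overlap, with a log2 fold change of -1.13 (SE 0.59, adjusted p = 0.56) and -0.69 without that library. The sum of Klra3, Klra8, Klra9 and Klra10 was 69.5 and 97.4 RPM in α7G control, 71.2 and 53.5 in α7G CS, 17.7 and 55.1 in α7E260A:G control, and 31.7 and 36.4 in α7E260A:G CS. The highest α7E260A:G value of this sum, in the female control, was just above the lowest α7G value, in the female CS library, and the log2 fold change was -0.90 (SE 0.40, adjusted p = 0.463). Each of Klra3, Klra8 and Klra9 was lower in α7E260A:G in 4 of 4 pairs of the same sex and exposure. Leaving out the female α7E260A:G control moved the fold changes of Klra3, Klra8 and Klra9 to -2.45, -1.51 and -1.56, and these then passed with adjusted p = 0.0145, 0.0164 and 0.0191, and leaving out the male library of that group moved those of Klra8 and Klra9 to -0.55 and -0.59.

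**Figure D2:**
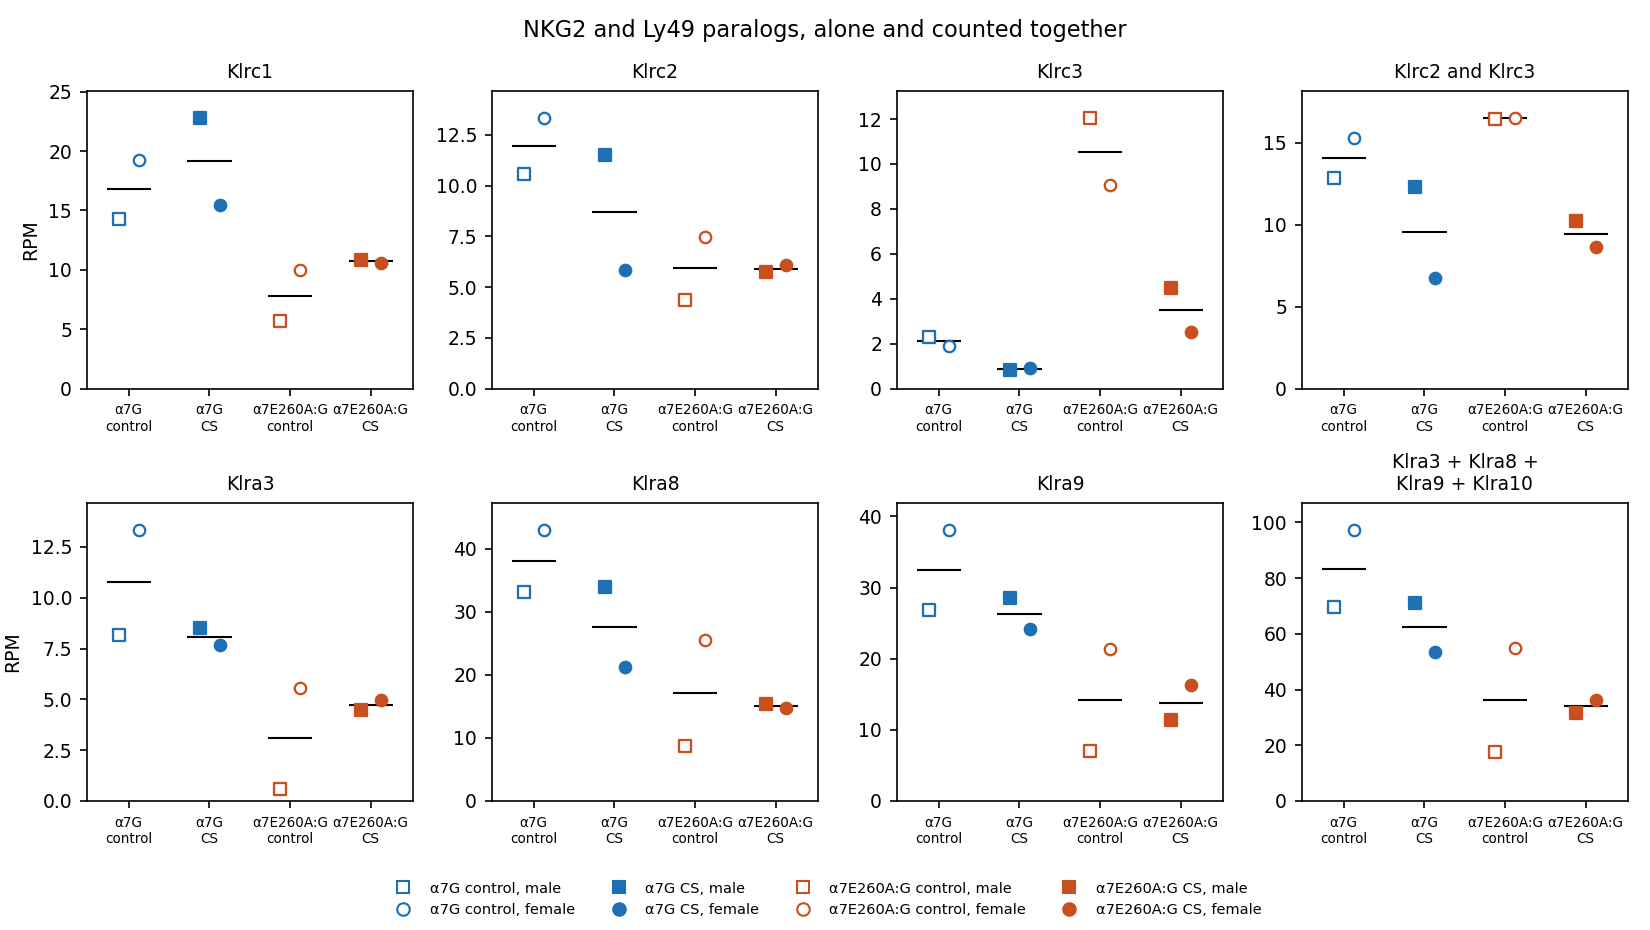
RPM of the NKG2 genes Klrc1, Klrc2 and Klrc3 with the sum of the last 2 (upper row), and of Klra3, Klra8 and Klra9 with the sum of these and Klra10 (lower row). Squares are male and circles female libraries, and bars are group means. Klrc3 is higher and the others lower in α7E260A:G, while the sum of Klrc2 and Klrc3 overlaps between the lines.

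Of the 8 inhibitory Ly49 genes on the list 4 were higher and 4 lower in α7E260A:G, and both activating ones were lower. Klra2 (Ly49B) and Klra17 (Ly49Q) are Ly49 receptors known from myeloid cells, and all their CDS windows occur once in the genome. Klra2 was at 80.3 and 62.9 RPM in α7G control, 61.6 and 61.4 in α7G CS, 89.8 and 118 in α7E260A:G control, and 70.8 and 101 in α7E260A:G CS. Each α7E260A:G library was above the α7G library of the same sex and exposure, although the lines overlapped through the male libraries, and the difference was a log2 fold change of 0.62 (SE 0.24, adjusted p = 0.369). Klra17 stood at 7.58 and 3.31 RPM in α7G control, 5.12 and 5.30 in α7G CS, 14.6 and 13.2 in α7E260A:G control, and 6.98 and 13.3 in α7E260A:G CS. The male α7E260A:G CS library lay below the male α7G control and the other 3 of that line above all α7G libraries, with a log2 fold change of 1.26 (SE 0.36, adjusted p = 0.212). Macrophage markers, led in counts by Chi3l3, Ear2 and Mrc1, summed to 9494 to 16656 RPM in α7G and 23249 to 38957 RPM in α7E260A:G, with all 10 of the list higher in the mutant line, and plasmacytoid dendritic cell markers (Tcf4, Siglech and Ccr9 in the lead) to 72.4 to 91.3 and 56.9 to 75.8 RPM, with all 4 lower. The part of those cells in the Klra2 and Klra17 values was not tested.

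The remaining Ly49 genes with enough counts were the activating Klra4 (Ly49D) and the inhibitory Klra7 (Ly49G) and Klra1 (Ly49A). Klra4 had 42.5 and 65 RPM and 47.1 and 44.8 RPM in the control and CS libraries of α7G, and 31.7 and 65.7 RPM and 23.3 and 31 RPM in those of α7E260A:G. Klra7 had 15.8 and 28.9 RPM and 19.4 and 22.2 RPM in the control and CS libraries of α7G, and 12.5 and 29.7 RPM and 8.35 and 16.4 RPM in those of α7E260A:G. Both were highest in the female control libraries of the 2 lines and lowest in the male α7E260A:G CS library, with genotype log2 fold changes of -0.33 (SE 0.33) and -0.28 (SE 0.43). Klra1 had 5.29 and 17.7 RPM and 8.38 and 10.7 RPM in the control and CS libraries of α7G, and 11.9 and 15.1 RPM and 8.98 and 7.74 RPM in those of α7E260A:G, lowest in the male α7G control, and a log2 fold change of 0.10 (SE 0.40). Klra6 (Ly49F) had 14, 15, 18, 18, 5, 4, 9, 7 counts in the 8 libraries in the order given above, lower in every α7E260A:G library than in every α7G library, with a log2 fold change of -1.36 (SE 0.42, adjusted p = 0.243), and Klra5 (Ly49E) had 5, 12, 17, 17, 17, 32, 7, 16 counts and a log2 fold change of 0.53 (SE 0.49).

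Ncr1 also stood higher in the mutant line. It was counted at 70.8 and 100.1 RPM in α7G control, 76 and 79.8 in α7G CS, 94.8 and 170.1 in α7E260A:G control, and 91.9 and 119 in α7E260A:G CS. Each α7E260A:G library was above the α7G library of the same sex and exposure, the lines overlapped only through the female α7G control, and the difference was a log2 fold change of 0.65 (SE 0.30, adjusted p = 0.481). Without the female α7E260A:G control it was 0.29 and without the male 0.89.

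**Figure D3:**
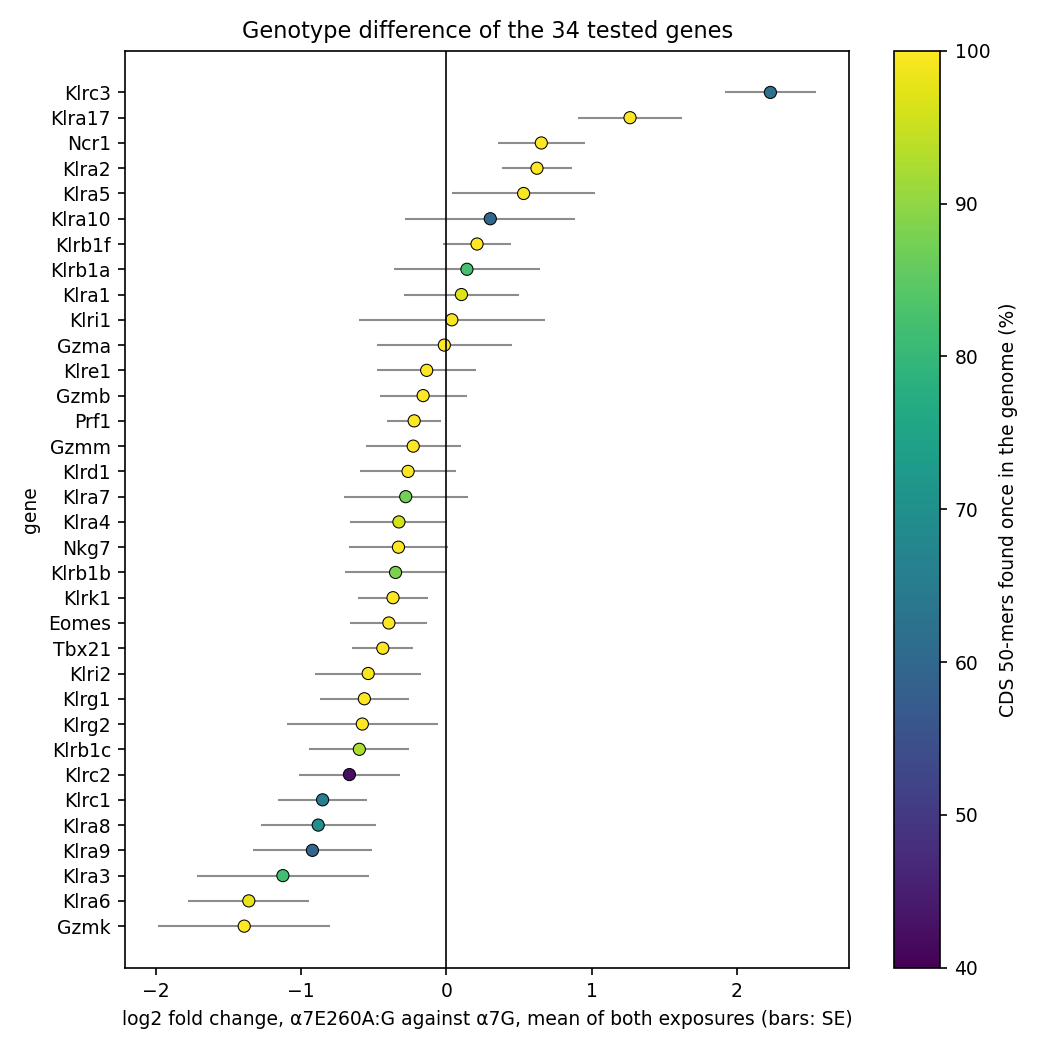
Log2 fold change (α7E260A:G against α7G, mean of both exposures) of the 34 tested genes, with bars of 1 SE, coloured by the share of 50-base CDS windows that occur once in the genome. Klrc3 stands at 2.23 and Gzmk at -1.39, and genes with a low share lie at both ends.

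The tested granule genes were all lower in α7E260A:G by their fold changes, but for all except Gzmk by less than 0.4 on the log2 scale. With the libraries scaled to the geometric mean of all 27 genes, Gzma, Gzmb, Gzmm and Prf1 turned to 0.23, 0.19, 0.14 and 0.21. That scaling makes the mean log2 level of the 27 genes equal in every library, so small values can change sign through it alone. With DESeq2 Gzma turned to 0.01. Gzma was at 392 and 817 RPM and 547 and 633 RPM in the control and CS libraries of α7G, and 367 and 1079 RPM and 281 and 514 RPM in those of α7E260A:G, from 281 in the male α7E260A:G CS library to 1079 in the female α7E260A:G control, with a log2 fold change of -0.01 (SE 0.46, adjusted p = 0.997). Nkg7 was at 165 and 241 RPM and 260.3 and 259 RPM in the control and CS libraries of α7G, and 131 and 266 RPM and 112 and 169 RPM in those of α7E260A:G, with a log2 fold change of -0.33 (SE 0.34, adjusted p = 0.82). The genotype log2 fold changes of Gzmb, Gzmm and Prf1 were -0.16 (SE 0.30), -0.23 (SE 0.33) and -0.22 (SE 0.19), and those of the factors Tbx21 and Eomes -0.44 (SE 0.21) and -0.40 (SE 0.27), which turned to 0.01 and 0.07 on the scaling to these genes. Gzmk, another tryptase-like granzyme found in T cells as well as NK cells, was at 9.74 and 9.39 RPM and 7.80 and 12.4 RPM in the control and CS libraries of α7G, and 3.41 and 5.39 RPM and 0.499 and 4.65 RPM in those of α7E260A:G. All 4 α7E260A:G values of Gzmk were below all 4 α7G values, with a log2 fold change of -1.39 (SE 0.59, adjusted p = 0.429), and without the male α7E260A:G CS library, which held 4 counts, the fold change was -0.95. Markers of T cells summed to 665 to 929.8 RPM in α7G and 516 to 890.0 RPM in α7E260A:G, of which 8 of 12 were lower in the mutant line, and their part in Gzmk was not tested. Counting directions that did not overlap, 1 of the 34 genes was higher in α7E260A:G (Klrc3) and 5 were lower (Gzmk, Klra3, Klra6, Klra9 and Klrc1), against 2.34% and 5.54% of all tested genes. With the dependence on CDS length removed, Nkg7 was added to the lower genes and Klrc3 was no longer among the higher.

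Of the 4 tested NKR-P1 genes 2 were lower and 2 higher in the mutant line, and of the 4 tested Klre, Klri and Klrg genes 3 were lower and 1 higher. Klrb1c (NK1.1) was at 45.5 and 73.1 RPM and 57.7 and 41.6 RPM in the control and CS libraries of α7G, and 24 and 49.2 RPM and 25.8 and 33.3 RPM in those of α7E260A:G, lower in 4 of 4 pairs of the same sex and exposure, with a log2 fold change of -0.60 (SE 0.34, adjusted p = 0.591). The inhibitory Klrb1b was at 31.6 and 36.3 RPM and 17.9 and 24.6 RPM in the control and CS libraries of α7G, and 14 and 27.3 RPM and 13.1 and 22.8 RPM in those of α7E260A:G, also lower in 4 of 4 pairs, with a log2 fold change of -0.35 (SE 0.35). Klrb1a, another NKR-P1 receptor, was at 4.57 and 20.8 RPM and 8.61 and 8.91 RPM in the control and CS libraries of α7G, and 9.75 and 16.6 RPM and 6.86 and 10.7 RPM in those of α7E260A:G, with its lowest value in the male α7G control, and its log2 fold change was 0.14 (SE 0.50). Klre1, which pairs with Klri1 or Klri2 at the cell surface, was at 48 and 74.9 RPM and 61.3 and 67.2 RPM in the control and CS libraries of α7G, and 43.5 and 95.6 RPM and 35 and 44.2 RPM in those of α7E260A:G. Klri2 was at 17.4 and 31.1 RPM and 23.7 and 16.9 RPM in the control and CS libraries of α7G, and 8.41 and 19.1 RPM and 15.3 and 13.6 RPM in those of α7E260A:G. Klrg1, an inhibitory receptor of mature NK cells and effector T cells that binds cadherins, was at 14.7 and 19.3 RPM and 9.66 and 14.2 RPM in the control and CS libraries of α7G, and 8.41 and 10.6 RPM and 6.48 and 10.3 RPM in those of α7E260A:G. Klri2 and Klrg1 were lower in α7E260A:G in 4 of 4 pairs and Klre1 in 3 of 4, with log2 fold changes of -0.54 (SE 0.37), -0.57 (SE 0.31) and -0.14 (SE 0.34). Klri1 ranged from 6 to 45 counts and Klrg2 from 8 to 33, with log2 fold changes of 0.04 (SE 0.64) and -0.58 (SE 0.52).

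Relative to Klrd1 in the same library, Ncr1, Klra2, Klra17 and Klrc3 did not overlap between the lines. This ratio was added after the values were seen and is given as a description, with Klrd1 taken because all its CDS windows occur once in the genome and CD94 is shared by the NKG2 receptors. Ncr1 transcripts were 0.938 to 1.15 times those of Klrd1 in the α7G libraries and 1.79 to 2.34 times in the α7E260A:G libraries. Klra2 transcripts were 0.722 to 1.08 and 1.24 to 2.22 times those of Klrd1, and Klra17 transcripts 0.0380 to 0.102 and 0.139 to 0.361 times. Of the other 33 tested genes, 4 did not overlap and were higher relative to Klrd1 in α7E260A:G (Klra17, Klra2, Klrc3 and Ncr1), against 2.97% of all other tested genes, and 3 were lower (Gzmk, Klra3 and Klra9), against 0.565%. Relative to Ncr1 instead, 18 of 33 were lower in α7E260A:G without overlap and 0 higher, against 16.6% and 0.271% of all other tested genes. Ncr1 was itself higher in α7E260A:G, with a log2 fold change of 0.65, and dividing by it shifts the ratios of other genes downward there. The counts relative to Ncr1 therefore do not show that the other genes fell. The fold change of Ncr1 with the libraries scaled to the geometric mean of these genes was 0.96 (adjusted p = 0.354), and none of the 34 genes passed on that scale.

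**Figure D4:**
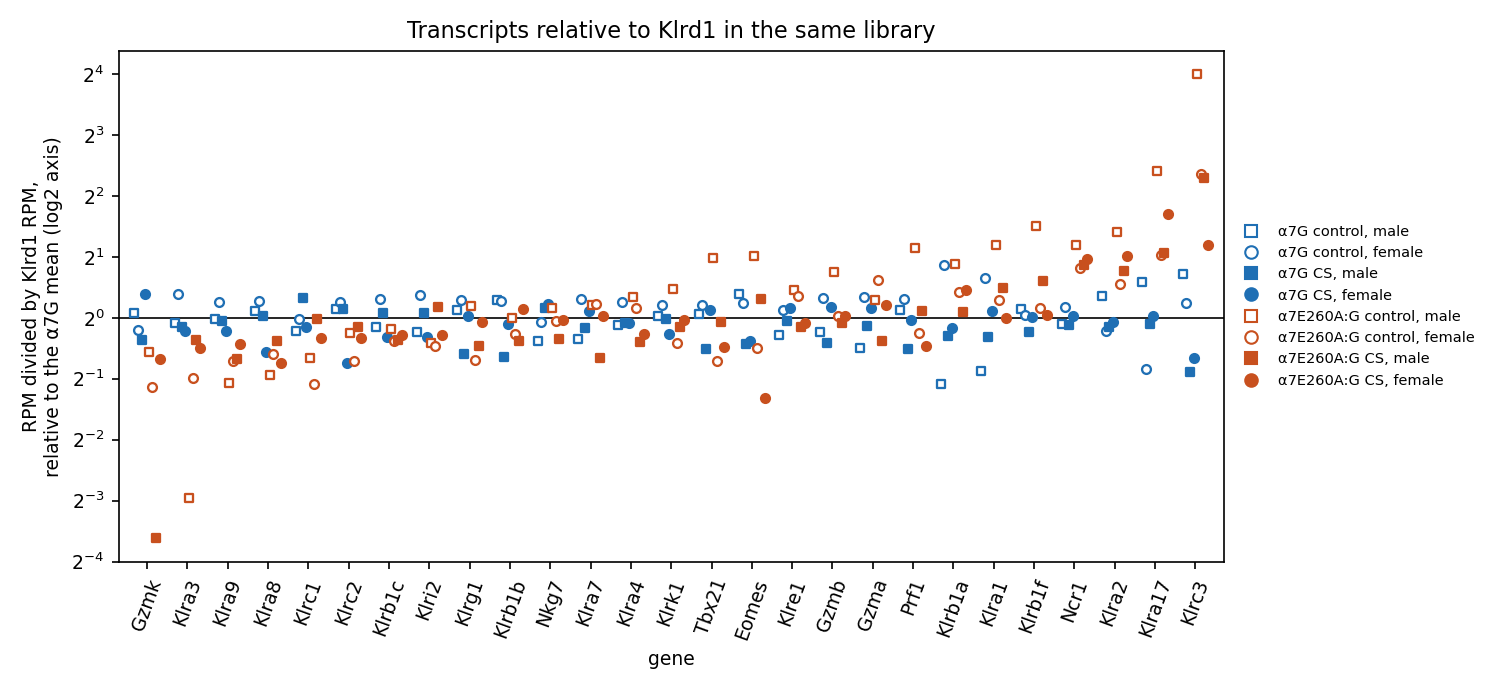
RPM of each gene divided by that of Klrd1 in the same library and by the mean ratio of the 4 α7G libraries (log2 axis), for the 27 genes shown above other than Klrd1, and Klrc3. Symbols as for the plot of all genes by library. Ncr1, Klra2, Klra17 and Klrc3 lie above the α7G points in all 4 α7E260A:G libraries.

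The next comparison asked how CS bore on these transcripts. Most were lower after CS, a count that was lower without the female control of either line. Prf1, Eomes, Tbx21 and Klrb1f were lower in all 4 pairs of the same sex and line, as were Gzmb, Klra10, Klra2, Klrb1b, Klrc3 and Klrg1. Gzmm and Klra6 were higher in all 4. The share of all tested genes that went the same way in all 4 pairs was not counted, so this is a description. None of the 34 passed edgeR's test in α7G (0% of all genes passed), in α7E260A:G (0.00733%), over both lines (0%) or in the difference between the lines (0%), and DESeq2 called 0 of them as well. At an unadjusted p under 0.05 there were 3 in α7G, against 6.71% of all genes, 5 in α7E260A:G, all lower, against 1.62% of all genes in that direction, 5 over both lines, against 7.64%, and 0 in the difference, against 2.18%. Over both lines 28 of 34 were lower after CS with a median log2 fold change of -0.30, against 49.2% of all tested genes and a median of 0.01. Without the female α7E260A:G control 17 of 34 were lower, with a median of 0.0025. In α7G 22 of 34 were lower and with a CDS length offset 30, and in α7E260A:G it was 30 of 34 in either fit, against 49.8% and 52.6% of all tested genes lower. Without the female α7G control 11 of 34 were lower in α7G, and without the female α7E260A:G control 14 of 34 were lower in α7E260A:G.

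Perforin and the transcription factors are given first. Prf1 was at 103 and 137 RPM in α7G control, 71.7 and 94.5 in α7G CS, 113 and 101 in α7E260A:G control, and 67.7 and 55.3 in α7E260A:G CS. All CS libraries lay below all control libraries, with a log2 fold change of -0.64 (SE 0.19, adjusted p = 0.636), and the female α7G CS library at 94.5 came closest to the controls. Eomes was at 21.6 and 22.8 RPM in α7G control, 13.3 and 13.1 in α7G CS, 18.2 and 15 in α7E260A:G control, and 13.6 and 5.31 in α7E260A:G CS. Its CS and control libraries did not overlap either, with a log2 fold change of -0.77 (SE 0.27, adjusted p = 0.645), and without the female α7E260A:G CS library, the lowest, the fold change was -0.56. For Tbx21 the values were 29.7 and 38.2 RPM in α7G control, 21.5 and 31.8 in α7G CS, 30.3 and 21.9 in α7E260A:G control, and 18 and 16.4 in α7E260A:G CS. The female α7G CS library exceeded 3 of the 4 control libraries, and the difference over both lines was a log2 fold change of -0.43 (SE 0.21, adjusted p = 0.65). These 3 genes have the longer coding sequences of the group (1662, 2122 and 1590 bases), and with the CDS length offset their fold changes were -0.63, -0.70 and -0.44. Klrb1f, an NKR-P1 family receptor with a genotype log2 fold change of 0.21 (SE 0.23), was at 6.98 and 7.58 RPM in α7G control, 5.82 and 6.54 in α7G CS, 9.75 and 8.95 in α7E260A:G control, and 6.36 and 5.20 in α7E260A:G CS. It was lower after CS in every pair, without overlap, with a log2 fold change of -0.43 (SE 0.23, adjusted p = 0.662). Of the 34 genes, 4 were lower after CS without overlap (Prf1, Eomes, Klrb1f and Klra10) and 1 higher (Gzmm), against 0.931% and 1.84% of all tested genes, and with the dependence on CDS length removed Klrb1f and Gzmm overlapped, as Klrb1f and Prf1 did with TMM-scaled RPM. Ptprc was also lower after CS in 4 of 4 pairs, with a log2 fold change of -0.65 (SE 0.23, adjusted p = 0.645) and -0.31 with the length offset.

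The granule proteases spread more between the libraries. Gzmb, which cleaves after aspartate and sets off cell death, was at 74.5 and 129 RPM in α7G control, 71.5 and 102 in α7G CS, 79.4 and 113 in α7E260A:G control, and 54.5 and 71.9 in α7E260A:G CS. It was lower after CS in all 4 pairs, by little in the α7G males, and the difference was a log2 fold change of -0.40 (SE 0.30, adjusted p = 0.723). Gzma was lower after CS in 3 of 4 pairs and higher in the α7G males, with a log2 fold change of -0.45 (SE 0.46, adjusted p = 0.763) over both lines. Leaving out the female α7E260A:G control, the highest library, turned the Gzma fold change to 0.18. Gzmm, a granzyme that cleaves after methionine or leucine, was at 3.73 and 2.99 RPM in α7G control, 6.05 and 8.57 in α7G CS, 2.56 and 3.29 in α7E260A:G control, and 6.98 and 3.87 in α7E260A:G CS. All CS libraries lay above all control libraries, with a log2 fold change of 1.01 (SE 0.33, adjusted p = 0.641), and with the CDS length offset 0.85 (SE 0.34, adjusted p = 0.51).

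**Figure D5:**
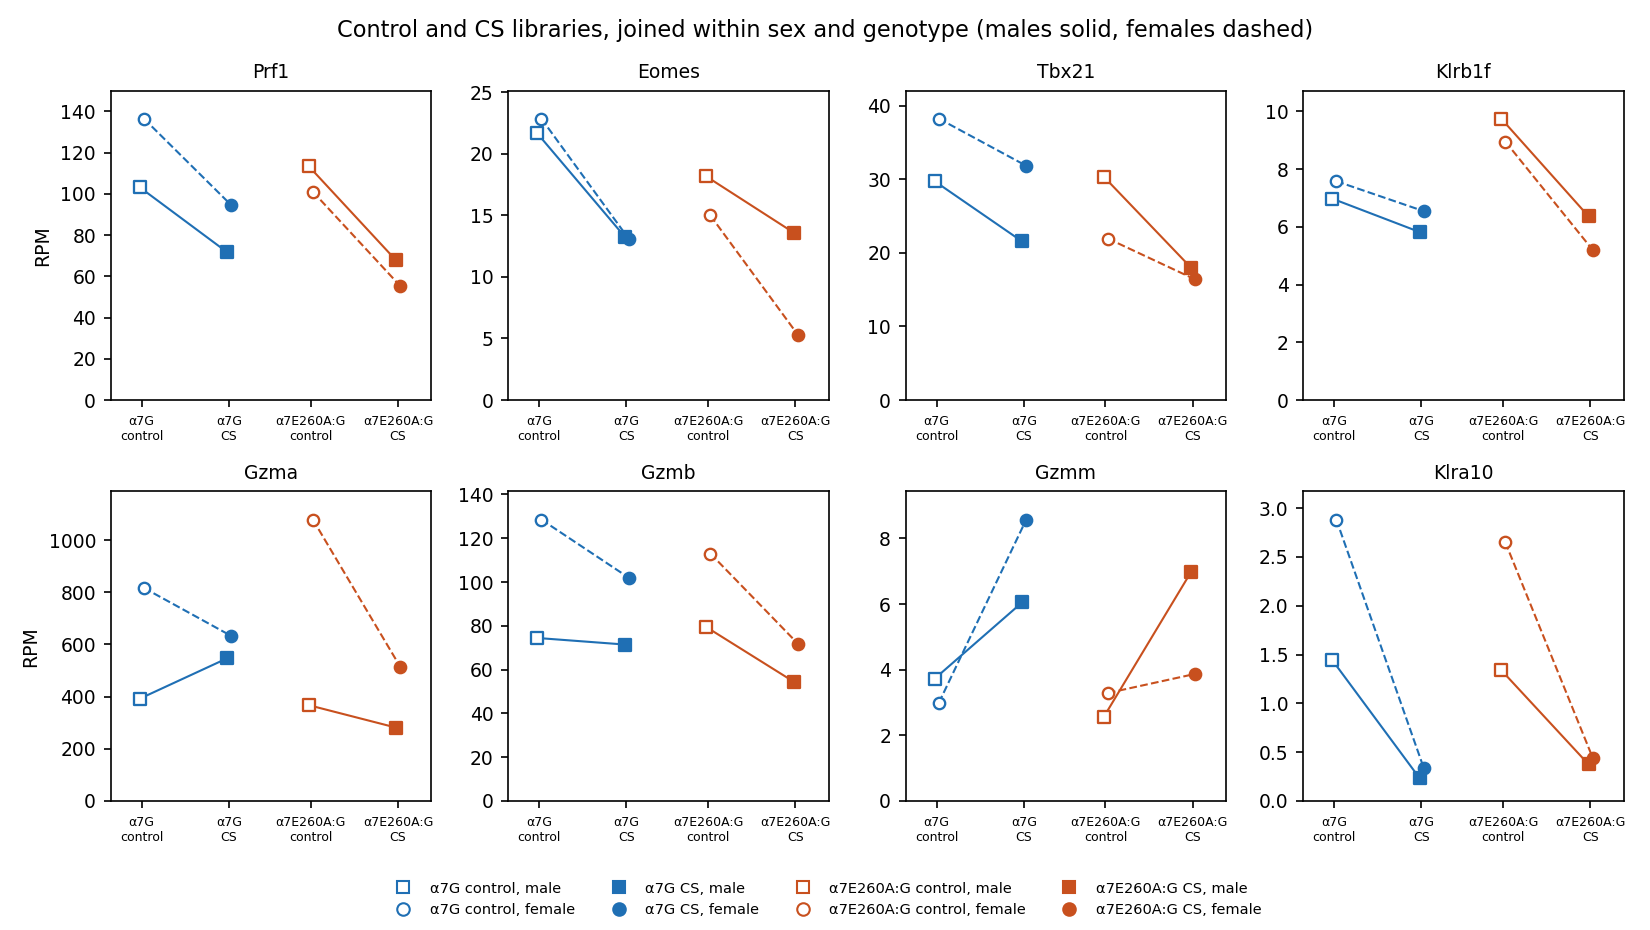
RPM of 8 genes in control and CS libraries, joined within sex and line (males solid, females dashed, blue α7G, orange α7E260A:G). Prf1, Eomes, Klrb1f and Klra10 lie lower and Gzmm higher in all 4 CS libraries, whereas Tbx21, Gzma and Gzmb overlap.

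By a more than 2-fold ratio of RPM averaged over male and female, which is the fold criterion of the study without its minimum of 200 mean counts, 3 of the 34 genes were lower after CS in α7G (Klra10, Klrc3 and Klri1), against 7.9% of all tested genes, and 2 were higher (Gzmm and Klra5), against 3.1%. In α7E260A:G the same 3 genes were lower, against 3.15%, and 0 were higher, against 2.4%. Klra10 and Klrc3 were more than 2-fold lower in both sexes of each line, against 3.44% and 0.939% of all tested genes. All 5 of these genes have a mean under 50 counts, so that with the minimum of 200 counts 0 of them qualified. The study, in contrast, places a small group of Klr genes among those lowered more than 2-fold by CS in α7E260A:G. Its text does not name these Klr genes singly. Klra10 (Ly49J) had 12, 27, 2, 3, 11, 29, 3, 4 counts in the 8 libraries, 11 to 29 in the controls and 2 to 4 after CS, with a log2 fold change of -2.56 (SE 0.58, adjusted p = 0.612). The CS counts of Klra10 lay at or near the floor of 3 counts. Its ratio, its fold change and its lack of overlap after CS rest on these values. Of its 50-base windows 59.7% occur once in the genome, and its closest copy Klra9 had a fold change of -0.18 (SE 0.41) after CS. Klrc3 was lower after CS in both sexes of both lines, with a log2 fold change of -1.40 (SE 0.31, adjusted p = 0.612) over both lines.

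The difference between the lines in their response to CS was not detectable at this depth and number of libraries for any of the 34 genes. The fold change after CS was lower in α7E260A:G than in α7G for 26 of 34, with a median difference of -0.44 (log2) against 0.02 over all tested genes, and with the CDS length offset for 21 of 34 with a median of -0.22. Without the female α7E260A:G control it was lower for 15 of 34. Scaling by library size moved the median over all tested genes to 0.21 and that of the 34 genes to -0.22. The response of Nkg7 differed by -1.09 (SE 0.68), that of Klre1 by -1.13 (SE 0.69), that of Gzma by -1.07 (SE 0.93) and that of Prf1 by -0.48 (SE 0.37). Klra5 had the lowest p, with a difference of -2.13 (SE 0.98) from 5 to 32 counts per library.

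The partners of these receptors were read from lists that were likewise drawn up by name, and no gene on them passed edgeR's test in any comparison unless a CDS length offset was added. Of 14 tested adaptors and signalling proteins, 7 were higher and 7 lower in α7E260A:G. Tyrobp (DAP12), the adaptor of activating Ly49 receptors that myeloid cells also use, was at 842 and 783 RPM in α7G control, 1404 and 1199 in α7G CS, 925 and 2375 in α7E260A:G control, and 1254 and 2029 in α7E260A:G CS, and with the CDS length offset it and Fcer1g were called in the genotype comparison. Fcer1g differed by 0.75 (SE 0.37, adjusted p = 0.527) and the phosphatase Ptpn6 by 0.01 (SE 0.19, adjusted p = 0.995) between the lines. In α7E260A:G 13 of the 14 were lower after CS. Of 23 surface and cytokine receptors of NK cells 15 were lower in α7E260A:G and 17 lower after CS over both lines, with log2 fold changes between the lines of 0.79 (SE 0.27, adjusted p = 0.301) for Fcgr3 and -0.38 (SE 0.16, adjusted p = 0.413) for Il2rb. Of 8 secreted products 5 were lower in α7E260A:G, and Ccl5, a chemokine of cytotoxic cells, was at 256 and 397 RPM in α7G control, 398 and 378 in α7G CS, 141 and 429.8 in α7E260A:G control, and 111 and 194 in α7E260A:G CS, with Ccl3 differing between the lines by 0.22 (SE 0.29, adjusted p = 0.87) and Ccl4 by -0.02 (SE 0.32, adjusted p = 0.99). Of 13 proteins of granule assembly and release 7 were lower in α7E260A:G, while Ctsc, which activates granzymes, differed by 0.76 (SE 0.23, adjusted p = 0.243), Lamp1 by 0.64 (SE 0.18, adjusted p = 0.216) and Lamp2 by 0.38 (SE 0.18, adjusted p = 0.484). Of 8 other NK transcription regulators 7 were lower after CS, with -0.41 (SE 0.24, adjusted p = 0.674) for Ets1, 0.05 (SE 0.29, adjusted p = 0.961) for Id2 and -0.59 (SE 0.29, adjusted p = 0.651) for Zeb2. With the CDS length offset Fcgr3, Ccl5, Lamp1 and Zeb2 were called between the lines, in a fit that called 3.56% of all genes.

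The ligands of these receptors were read in the same way. Of the 22 listed, 16 were in the files and 10 were tested, 7 of which were higher and 3 lower in α7E260A:G and 6 higher and 4 lower after CS. B2m differed between the lines by 0.38 (SE 0.40, adjusted p = 0.829), H2-D1 by 0.08 (SE 0.20, adjusted p = 0.948) and H2-K1 by -0.16 (SE 0.23, adjusted p = 0.886). Among the cytokines that prime NK cells all 4 tested were higher in α7E260A:G, with Il18 at 1.04 (SE 0.37, adjusted p = 0.317), called with the CDS length offset at 1.02 (adjusted p = 0.0274), Il15 at 0.63 (SE 0.34, adjusted p = 0.568) and Il12a at 0.32 (SE 0.47, adjusted p = 0.89). Klrh1, Syk, Clec2f and several NKG2D ligands (Raet1a, Raet1b, Raet1e, H60a and Ulbp1) were not analysed here.

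Markers of other cells that the preparation could hold differed between the groups too, although none passed edgeR's test without the length offset. B cell markers summed to 1589 to 2477 RPM in α7G and 999 to 1257 RPM in α7E260A:G, lower for 9 of 9 and led in counts by Cd79a, Cd79b and Cd22, and neutrophil markers (S100a9, S100a8 and Ltf in the lead) to 1461 to 2858 and 1278 to 3456 RPM, higher for 8 of 8 tested. Mast cell and basophil markers, with Cma1, Cpa3 and Mcpt8 in the lead, summed to 51.8 to 87.5 RPM in the controls and 83.5 to 132 RPM after CS, higher for 7 of 8. T cell markers (Cd3d, Cd3g and Lat in the lead) were lower after CS for 12 of 12 in α7E260A:G and 4 of 12 in α7G, and general epithelial markers (Krt19, Cdh1 and Krt18) were lower in α7E260A:G for 4 of 5, ATII markers (Sftpc, Sftpa1 and Sftpb) for 8 of 8, ciliated cell markers (Foxj1, Rsph1 and Dynlrb2) for 5 of 6 and endothelial markers (Pecam1, Vwf and Cdh5) for 5 of 6. With the length offset 7 of 10 macrophage, 6 of 9 B cell, 2 of 8 ATII, 2 of 6 endothelial and 1 of 5 epithelial markers passed between the lines, in a fit that called 3.56% of all genes. The part of any of these cells in the values of the NK and cytotoxic genes was not tested.

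Across the 8 libraries the levels of these genes ran together to unequal degrees. Of the 27 genes with a mean of at least 50 counts, 11 had a Pearson r of at least 0.7 between their log2 RPM and that of the sum of the others, led by Klra7 (0.99), Klre1 (0.98), Klra4 (0.96) and Gzma (0.93). Prf1 (0.44), Ncr1 (0.42), Tbx21 (0.36), Eomes (0.20), Klra2 (0.06) and Klra17 (-0.25) followed the sum less. Gzma made up 27.2% to 43.3% of the summed RPM, so r with the sum leans heavily on Gzma for the other genes. The 10 tested genes outside the set whose levels ran most closely with the summed transcripts were Acat2 (0.97), 2210404O07Rik, Cma1, Trbv19, Trbv3, Igkv3-7, Ccl5, Tmem37, Birc5 and Gm16696 (0.90), among them a mast cell protease, gene segments of the T cell receptor and of immunoglobulin, and a chemokine of cytotoxic cells. These are descriptions over 8 libraries that share depth and CDS length effects, and the sum itself had r = -0.63 with the slope on CDS length.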

How the data were processed

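RNA from CD45-depleted distal lung cells of 8 mouse libraries was poly(A)-selected and sequenced with a stranded kit. Per the labels and the study's methods, the authors aligned the reads with STAR to NCBI37/mm9 and deposited raw counts per gene over coding sequences made with HTSeq and GENCODE M1. Versions are not given in the sources used here. Total counts were 8020726 to 10944100 per library.

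From the deposited counts, RPM was the count per 1000000 counted reads and RPKM was RPM per kb of CDS. Genes whose mean over the libraries was 10 counts or more (13637 of 22756) were fitted in edgeR 4.0.16 (R 4.3.3) with TMM scaling, a 4-group model over all 8 libraries and the quasi-likelihood test, with Benjamini-Hochberg adjustment over all of them at a threshold of 0.05. A sex term was not in the model. CS within each line, CS over both lines, genotype over both exposures and their interaction were tested. Standard errors are on the log2 scale. Alternatives were DESeq2 1.42.0, library size scaling, other count filters, an offset for CDS length (a lowess fit of each library's deviation), sex as a block, each library left out, and, added after the data were seen, near copies counted together, scaling to the geometric mean of these genes, and ratios to Ncr1 or Klrd1. The fit was run on simulated data with a lower dispersion than the common dispersion of these libraries, which checks the code and not its power here. The share of CDS windows of 50 bases found once was counted in NCBIM37.

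The genes and the lists of adaptors, surface receptors, secreted products, granule proteins, transcription regulators, ligands, cytokines and other cell types were chosen with earlier results of these data known. The text gives genes averaging 50 counts or more in every library, those from 10 to 50 by counts or RPM, and the rest by range. From each list of partners it gives the 3 genes with the most counts, except for 1 gene that is not reported here.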

Additional observations from a re-analysis of the deposited data

How the results depend on the processing

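None of the 34 genes passed for CS within either line, CS over both lines or the interaction under any alternative. Between the lines 0 passed in edgeR as reported, 2 with DESeq2 (Klrc3, adjusted p = 5.46e-06, and Klra17, 0.0352), 1 with all genes of at least 1 count and 1 with the CDS length offset (Klrc3 in both), and 2 with sex as a replicate block together with that offset (Klrc3, 0.0118, and Ncr1, 0.0416), in fits that called 3.78%, 0.393%, 3.56% and 5.21% of all genes. Leaving out 1 library gave 0 to 5, with 5 without the female and 1 without the male α7E260A:G control, against 4.74% and 3.07% of all genes. The replicate block for sex alone called 0, with Klrc3 at 2.22 (adjusted p = 0.0563), and changed no other call. Same-sex libraries of different groups had correlations of their deviations of -0.0023 to 0.55, not above 0.1 in every pair. Sex was therefore not treated as a pairing in the main test, and counts over pairs of the same sex are descriptions only.

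Of the genes more than 2-fold apart by RPM after CS, those with a mean of at least 50 counts were 0 lower and 0 higher in α7G and 0 lower in α7E260A:G. With CDS length removed 0 were higher in α7G, and with the geometric mean of the sexes 1 was higher in α7E260A:G. Using 1 sex alone gave 3 to 5 lower and 1 to 2 higher in α7G and 5 to 7 lower and 1 to 2 higher in α7E260A:G. The 5 genes without overlap after CS became 3 with TMM-scaled RPM and 3 with CDS length removed.

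Genotype fold changes kept their direction in all alternatives for 20 of 34 genes and CS fold changes over both lines for 15 of 34. These alternatives include the scaling to these genes. It makes the mean log2 level of those averaging 50 counts or more equal in every library, so small values can change sign through it alone. Scaling to these genes turned the genotype values of Eomes (0.071), Gzma (0.23), Gzmb (0.19), Gzmm (0.14), Klre1 (0.15), Klrg2 (0.025), Prf1 (0.21) and Tbx21 (0.0097), DESeq2 that of Gzma (0.013) and library size scaling that of Klri1 (-0.039). For CS, scaling to these genes turned Klra2 (0.0047), Klra8 (0.050), Klra9 (0.19), Klrb1c (0.059), Klrc2 (0.083), Klrd1 (0.16), Klri2 (0.28), Ncr1 (0.089) and Nkg7 (0.26), the length offset Klra3 (-0.054), Klra5 (-0.094) and Klrg2 (-0.081), the replicate block with that offset Klra5 (-0.078) and Klrg2 (-0.058), library size scaling Klrg2 (-0.040), and the replicate block Klri2 (0.0072) and Nkg7 (0.0097). Leaving out 1 library moved genotype values across 0 for Gzma (-0.64 to 0.32), Gzmb (-0.41 to 0.088), Klra1 (-0.22 to 0.69), Klra10 (-0.10 to 0.62), Klra7 (-0.78 to 0.012), Klrb1a (-0.22 to 0.91), Klrd1 (-0.76 to 0.027), Klre1 (-0.60 to 0.14) and Klri1 (-0.37 to 1.01). It did so for CS in Gzma (-0.80 to 0.18), Gzmk (-1.58 to 0.15), Klra1 (-0.79 to 0.12), Klra17 (-0.56 to 0.13), Klra3 (-0.38 to 1.38), Klra5 (-0.31 to 0.43), Klra7 (-0.81 to 0.079), Klra8 (-0.67 to 0.29), Klra9 (-0.51 to 0.46), Klrb1a (-0.91 to 0.22), Klrb1c (-0.54 to 0.15), Klrc2 (-0.53 to 0.11), Klrd1 (-0.46 to 0.33), Klre1 (-0.65 to 0.10), Klrg2 (-0.33 to 0.72), Klri2 (-0.39 to 0.38), Ncr1 (-0.46 to 0.14) and Nkg7 (-0.32 to 0.37). The cause of these shifts was not tested. A group left with 1 library is assumed to vary like the others. Genes under 50 mean counts are limited by depth.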
